A study of Homo sapiens with 3 samples.

Results

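The RNAs described here are nuclear transfer RNAs (tRNAs) bound by DICER, apart from valine, glycine and glutamate tRNAs and from the isotypes TyrGTA, IleTAT, LeuCAA and ArgTCT. They were found from the authors' annotation, as every cluster of overlapping reads annotated on its own strand as a tRNA outside the mitochondrial genome. Clusters naming a tRNA gene of those isotypes were left out. This gave 315, 294 and 200 clusters in replicates 1, 2 and 3, of 418, 385 and 262 on all nuclear tRNAs and of 11577, 18065 and 5099 in all. A series-wide list by the authors, whose clusters needed reads in 2 or more replicates, added 284 of 370 nuclear tRNA clusters and of 8469 in all. The 4 lists together held 1093 clusters of this tRNA set, each naming 1 tRNA gene. None of these gene names was that of a mitochondrial tRNA or a set-aside isotype. The set includes predicted tRNA pseudogenes, however, and the cluster of 1 of these overlaps a repeat annotated as a glutamate tRNA. The set-aside nuclear tRNAs serve below as the tRNAs the set is compared with.

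The material was HEK293, an established human embryonic kidney line, in its Flp-In T-Rex form carrying FLAG-tagged DICER. RNA bound to the tagged protein was read by PAR-CLIP, in which a photoreactive uridine analogue is crosslinked to protein by ultraviolet light and then read as a T-to-C conversion. The samples were 3 replicates, numbered as labelled and made with RNase T1, and all formed 1 group, with no untagged, uncrosslinked or treated samples used here. Separate cultures are not stated in the labels, so the spread between them may be technical.

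Transfer RNAs are short RNAs folded into a cloverleaf, transcribed by RNA polymerase III from many scattered and often near-identical genes, that carry amino acids to the ribosome. DICER is the RNase III enzyme that releases miRNAs from hairpin precursors, and it has been described to bind or cut some tRNAs as well. Genes with the same anticodon, the triplet that reads the codon, can yield the same mature tRNA, so a read may match several genes. The sources used here do not give how the authors placed such reads, and the division of reads over near-identical genes is therefore uncertain.

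The tRNA set held 105400, 192184 and 117764 T-to-C conversions in replicates 1, 2 and 3, on 14917, 17551 and 5366 distinct reads. Its share of all conversions in a list was 8.07%, 18.1% and 19.8% in replicates 1, 2 and 3, or 15.3% ± 6.33 (SD, n = 3). Replicate 1 was low and replicates 2 and 3 lay close together, with a mean of 18.9% without replicate 1. By distinct reads, which count identical reads once, the shares were nearer to each other, at 13.6%, 15.7% and 18.2%. Only 2.76% ± 1.15 of all clusters belonged to the set (SD, n = 3). This share was 8.92% where clusters needed at least 3 distinct reads. Reads are not independent molecules, with 17.0, 35.2 and 62.2 reads per distinct read in the set.

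Among nuclear tRNAs, the set made up 76.0% ± 0.572 of clusters, 58.7% ± 1.92 of distinct reads and 55.3% ± 10.9 of conversions (SD, n = 3). Its conversion share was 42.6%, 61.1% and 62.0% in replicates 1, 2 and 3. Valine tRNAs held 24.4%, 26.9% and 27.2%. Glycine and glutamate tRNAs held 8.59%, 4.68% and 3.22%, and the isotypes with intron-containing genes (TyrGTA, IleTAT, LeuCAA and ArgTCT) held 24.4%, 7.34% and 7.57%. The set thus had its lowest share in replicate 1, where the isotypes with intron-containing genes had their highest.

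The typical cluster of the set carried fewer conversions than that of the set-aside tRNAs pooled, in every replicate. The median was 41, 27 and 40 conversions per cluster in the set, against 57, 41 and 57.5 in set-aside tRNAs, in replicates 1, 2 and 3. The difference of median log2 conversions, the set minus the set-aside tRNAs, was -0.48, -0.60 and -0.52, or -0.53 ± 0.0645 (SD, n = 3). An exact two-sided sign-flip permutation test over the 3 replicates gave p = 0.25, the smallest it can give, and 0.292 after Benjamini-Hochberg adjustment over 7 such tests. With 3 replicates, this test cannot pass 0.05 for any of the differences below. Against each set-aside group the order varied: the median was 36, 85.5 and 46 in valine tRNAs, 29, 27 and 43 in glycine and glutamate tRNAs, and 113, 41 and 117 in the isotypes with intron-containing genes. Only the isotypes with intron-containing genes lay above the set in all 3 replicates. Conversions were concentrated in few clusters: the 10 highest of the set held 46.0%, 60.1% and 66.4% of its conversions, but 29.1%, 30.5% and 37.7% of its distinct reads.

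Most tRNA genes of the set were found again. Of 268 genes with a cluster in any replicate, 161 (60.1%) had one in all 3, 64 in 2 and 43 in 1. Among the set-aside tRNA genes the share was 60.3% (47 of 78), so the set did not stand apart in this respect. Of the genes in a single replicate, 28 were in replicate 1, 12 in replicate 2 and 3 in replicate 3. These had 1 to 166 conversions, with a median of 9. In the series-wide list, 165 of the set's 284 clusters (58.1%) overlapped a cluster in all 3 replicates by at least 1 nt. The share was 58.1% for all nuclear tRNA clusters and 15.9% for clusters of every kind. Each of the 34 anticodons found, which serve 17 amino acids including selenocysteine, had at least 1 gene with a cluster in all 3 replicates.

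RefSeq lists 320 nuclear tRNA genes in 36 anticodons that the rule would admit (assembly GRCh38.p14, used for names, numbers and lengths of genes and not for coordinates). The 2 anticodons without any cluster were IleGAT, with 3 genes, and TyrATA, with 1. The number of RefSeq genes showed little relation to signal: across the 34 anticodons, Pearson's r with the mean share of conversions was 0.0334 and Spearman's rho was -0.16. With distinct reads they were 0.139 and 0.0180. Cysteine GCA had 29 genes and 5.70% ± 3.43 of the set's conversions, whereas ArgCCG had 4 genes and 8.54% ± 2.15 (SD, n = 3). Selenocysteine TCA had 2 genes and 3.28% ± 0.773. Anticodons share libraries and near-identical genes, so these values are descriptions only.

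By mean share of conversions, lysine, arginine, proline and glutamine tRNAs led the set, with 47.6%, 58.8% and 59.1% of its conversions together in replicates 1, 2 and 3. They were the first 4 only in replicate 2. Serine at 15.7% and leucine at 14.8% lay above lysine, glutamine and proline in replicate 1. Alanine at 12.1% lay above arginine and glutamine in replicate 3. Lysine tRNA held 13.0%, 16.7% and 21.5%, a mean of 17.1% ± 4.25 (SD, n = 3 here and for each amino acid below). Arginine tRNA, without its set-aside TCT isotype, held 15.8%, 13.8% and 11.3%. Proline tRNA held 9.17%, 14.4% and 17.1%. Glutamine tRNA held 9.63%, 13.9% and 9.19%. The values of these 4 amino acids overlap across replicates, and none was first in every replicate: arginine led replicate 1, and lysine led replicates 2 and 3. Other weights gave other orders. By distinct reads, arginine held 13.96% ± 0.893, lysine 13.3% ± 1.21, leucine 8.90% ± 0.617, proline 8.81% ± 0.555 and glutamine 8.22% ± 0.756. By reads, alanine at 14.2% ± 8.76, arginine at 14.0% ± 7.59 and leucine at 11.6% ± 4.04 came first.

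**Figure D1:**
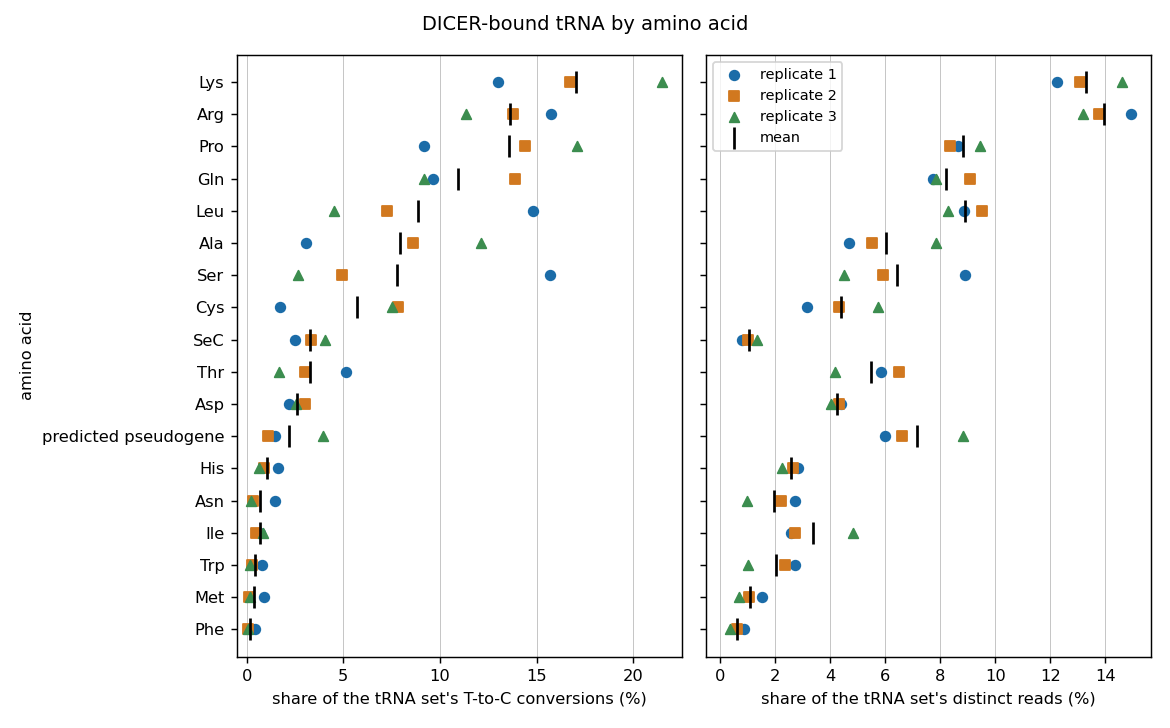
Share of the tRNA set's T-to-C conversions (left) and distinct reads (right) by amino acid, in percent, with 1 point per replicate and a bar for the mean. Points of serine and leucine spread widely by conversions, with serine at 15.7%, 4.95% and 2.63%, and lie closer together by distinct reads.

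A second group of amino acids changed place between replicates. Serine tRNA held 15.7%, 4.95% and 2.63% of the set's conversions in replicates 1, 2 and 3, and ranked 2, 8 and 10. Leucine tRNA, without its CAA isotype, held 14.8%, 7.28% and 4.49%. Both were highest in replicate 1, and their means fell to 3.79% and 5.88% without it, against 7.75% ± 6.96 and 8.86% ± 5.33 with it. Alanine tRNA held 3.08%, 8.58% and 12.1%, and cysteine tRNA 1.74%, 7.83% and 7.53%. These were lowest in replicate 1, and without it their means were 10.4% and 7.68%. Counting distinct reads narrowed the spread, to 6.44% ± 2.24 for serine and 8.90% ± 0.617 for leucine. Alanine then held 6.01% ± 1.64 and cysteine 4.41% ± 1.30.

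Among the remaining amino acids, selenocysteine tRNA, which inserts selenocysteine at reprogrammed stop codons, held 3.28% ± 0.773 of conversions. Threonine held 3.26% ± 1.75 and aspartate 2.59% ± 0.419. Histidine held 1.04% ± 0.527, asparagine 0.675% ± 0.697 and isoleucine, here the AAT anticodon, 0.665% ± 0.185. Tryptophan held 0.401% ± 0.336, methionine 0.389% ± 0.438 and phenylalanine 0.183% ± 0.193. Replicate 1 weighed on several of these means: without it, asparagine held 0.275%, tryptophan 0.209%, methionine 0.136% and phenylalanine 0.0716%. The lowest of these were still present in every replicate, phenylalanine with 427, 143 and 81 conversions. The annotation calls 27 further members predicted tRNA pseudogenes, and 12 of them had a cluster in all 3 replicates. Predicted pseudogenes held 2.16% ± 1.54 of conversions, but 7.14% ± 1.48 of distinct reads and 10.7% ± 3.94 of reads. A single gene annotated as a suppressor tRNA had 4, 3 and 0 conversions.

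By anticodon, LysTTT led by conversions, with 12.7% ± 5.88 of the set's conversions, from 7003, 24826 and 21659 in replicates 1, 2 and 3. ProTGG followed with 10.1% ± 4.87, GlnCTG with 9.85% ± 3.01, ArgCCG with 8.54% ± 2.15 and LeuTAA with 6.25% ± 3.83. The SDs of these 5 overlap, so their order is not resolved by 3 replicates. By distinct reads the order differed: LysCTT, with 4.40% ± 1.72 of conversions, held 7.26% ± 1.14 of distinct reads, GlnCTG 6.76% ± 0.670 and LysTTT 6.04% ± 2.32. Anticodons of 1 amino acid differed widely. Proline TGG had 5063, 21229 and 16955 conversions, and proline AGG, with the lowest mean share of all 34, had 92, 76 and 95. In replicate 3, ArgACG, PheGAA and LeuAAG were lower, with 63, 81 and 85. RefSeq lists 7 genes for ProTGG and 9 for ProAGG. For alanine the order turned between replicates. AlaCGC with 5 genes had 464, 13388 and 11962 conversions, and AlaAGC with 20 genes had 1880, 2584 and 2092, the higher in replicate 1 only. By reads AlaAGC was higher in every replicate, with 7390, 65932 and 38984 against 1035, 41788 and 29385. ArgCCT was the steadiest of the higher anticodons, at 2.99% ± 0.195. Between replicates, log2 conversions over the 34 anticodons had Pearson's r of 0.791 for replicates 1 and 2, 0.703 for 1 and 3, and 0.973 for 2 and 3. With distinct reads r was 0.941, 0.832 and 0.946. By conversions replicate 1 thus stood apart, which was not so by distinct reads. Over the 161 genes in all 3 replicates, r of log2 conversions was 0.814, 0.712 and 0.865 for the same pairs. For distinct reads it was 0.924, 0.820 and 0.889, with replicates 1 and 3 the least alike.

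Within some anticodons, a single gene held most conversions. In 17 of the 34 anticodons 1 gene held more than 50% of conversions in every replicate, and in 21 the same gene led in all 3. For ArgCCG, with 2 genes found in each replicate, chr17.tRNA23-ArgCCG held 96.4%, 99.3% and 97.8% in replicates 1, 2 and 3. For SeCTCA, with 2, 2 and 1 genes found, chr19.tRNA8-SeCTCA held 99.5%, 99.9% and 100%. For ProCGG, with 1, 3 and 1 genes found, chr6.tRNA30-ProCGG held 100%, 99.5% and 100%. Where only 1 gene was found, its share is 100% by definition. Elsewhere the leader changed. For GlnCTG it was chr15.tRNA7-GlnCTG in replicate 1 with 56.7%, and chr6.tRNA131-GlnCTG in replicates 2 and 3 with 88.5% and 83.6%. For CysGCA a different gene led each replicate, with 23.1%, 40.97% and 35.6%.

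The 12 genes that ranked highest by conversions in the series-wide list, of those found in all 3 replicates, held 39.4%, 64.1% and 67.2% of the set's conversions, and 29.6% ± 5.17 of its distinct reads (SD, n = 3). The highest was chr17.tRNA23-ArgCCG (hg19, chromosome 17, 66015999 to 66016098, minus strand), with 11062, 15409 and 7667 conversions in replicates 1, 2 and 3. Its share of the set was largest in replicate 1, at 10.5%, against 8.02% and 6.51% in replicates 2 and 3. A pair of lysine TTT genes on chromosome 6 was also high in every replicate. Gene chr6.tRNA149-LysTTT (27302761 to 27302846, minus strand) had 3469, 15060 and 12393, and chr6.tRNA143-LysTTT (27559627 to 27559672, minus strand) had 3035, 9350 and 8904.

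**Figure D2:**
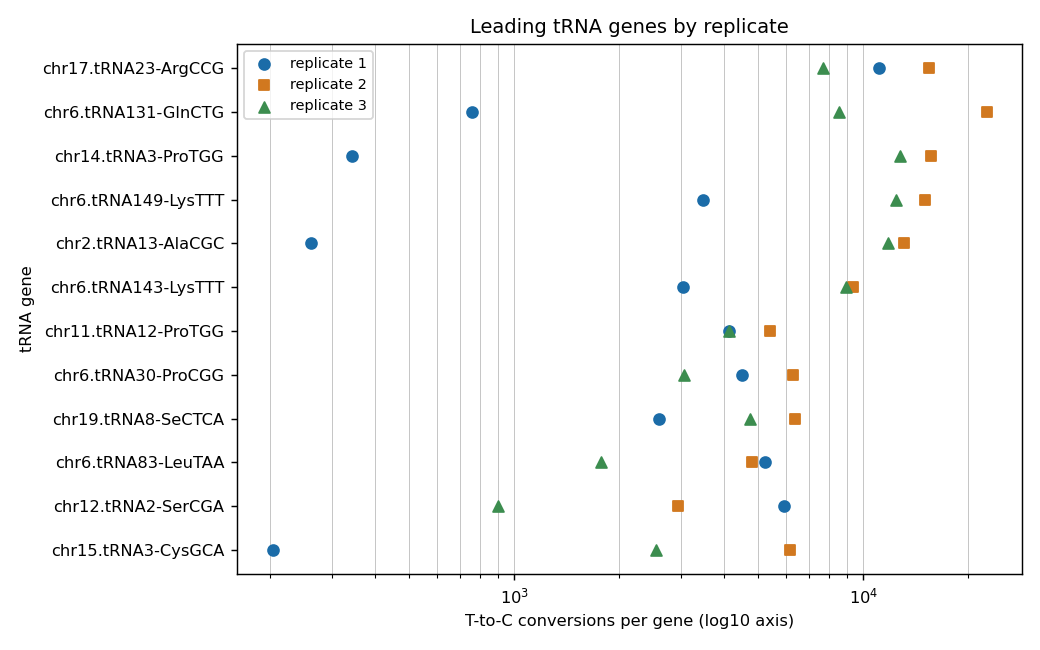
T-to-C conversions of the 12 leading tRNA genes on a log10 axis, with 1 point per replicate. Replicate 1 lies far below the others for AlaCGC, GlnCTG, the chromosome 14 ProTGG and CysGCA genes, and above them for SerCGA and LeuTAA.

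Further leading genes divided by how replicate 1 compared. Gene chr6.tRNA131-GlnCTG (27759113 to 27759214, minus strand) had 759, 22581 and 8522 conversions. Gene chr14.tRNA3-ProTGG (chromosome 14, 21101158 to 21101208, plus strand) had 344, 15670 and 12770. Gene chr2.tRNA13-AlaCGC (chromosome 2, 157257276 to 157257364, plus strand) had 261, 13120 and 11744, and chr15.tRNA3-CysGCA (chromosome 15, 80036990 to 80037030, plus strand) had 203, 6163 and 2555. In all 4, replicate 1 was the lowest. Distinct reads spread less: chr2.tRNA13-AlaCGC had 94, 286 and 184, and chr14.tRNA3-ProTGG 243, 437 and 198. The other direction was seen for chr12.tRNA2-SerCGA (chromosome 12, 56584147 to 56584236, plus strand), with 5937, 2937 and 900 conversions. It was also seen for chr6.tRNA83-LeuTAA (chromosome 6, 144537678 to 144537777, plus strand), with 5222, 4813 and 1767. Steadier than these were chr11.tRNA12-ProTGG, with 4117, 5413 and 4134, chr6.tRNA30-ProCGG, with 4507, 6304 and 3074, and the selenocysteine gene, with 2604, 6380 and 4744. The selenocysteine cluster (chromosome 19, 45981858 to 45981946, minus strand) lies within ERCC1, a DNA repair gene, on the same strand.

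Outside the leading 12, the series-wide list put 1 gene first for each further amino acid, but that gene did not always lead each replicate. Gene chr12.tRNA5-AspGTC had 733, 4375 and 2263 conversions in replicates 1, 2 and 3, chr6.tRNA127-ThrTGT 255, 2241 and 458, and chr1.tRNA118-HisGTG 649, 922 and 370. Lower leaders were chr17.tRNA6-TrpCCA with 562, 317 and 112, chr6.tRNA57-IleAAT with 344, 269 and 445, and chr1.tRNA47-AsnGTT with 418, 329 and 58. The lowest were chr8.tRNA10-MetCAT with 498, 62 and 99, and chr11.tRNA15-PheGAA with 223, 50 and 32. In replicate 1, chr17.tRNA14-ThrCGT (1456, 745 and 49) and chr6.tRNA33-HisGTG (867, 550 and 306) were higher than the threonine and histidine genes named. In replicate 2, chr6.tRNA153-IleAAT (114, 411 and 173) and chr1.tRNA32-MetCAT (164, 71 and 18) were higher than those of isoleucine and methionine. In replicate 3, chr12.tRNA11-PheGAA (63, 50 and 49) was higher than that of phenylalanine. Of predicted pseudogenes, chr2.tRNA25-PseudoCTC led with 515, 1297 and 4213. Its cluster (chromosome 2, 71273524 to 71273565, minus strand) overlaps a repeat annotated as a glutamate tRNA.

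Of the 5 largest ratios between replicates, 4 came from genes with few conversions. Among genes in all 3 replicates with at least 100 conversions in 1 of them, the share of conversions in chr6.tRNA130-GlnTTG differed 150-fold, from counts of 404, 130 and 3. Counts were 294, 38 and 5 for chr1.tRNA7-AsnGTT, 193, 8 and 12 for chr1.tRNA25-AsnGTT, and 117, 5 and 33 for chr16.tRNA20-MetCAT, which gave ratios of 65.7, 44.0 and 42.7. All 4 were highest in replicate 1. The fifth, chr2.tRNA13-AlaCGC, had a ratio of 40.3 with the lowest share in replicate 1.

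Among genes with a covered stretch of 70 to 95 nt, clusters listed on its 5' side held most conversions. Each cluster has 1 listed position in the files, whose exact meaning the sources used here do not give. It was placed along the covered stretch in the 104 genes whose clusters from all lists together spanned 70 to 95 nt. The median stretch was 89 nt in each replicate, so its midpoint need not be that of the tRNA. All conversions of a cluster were counted at its listed position, so the place of each conversion was not measured. Longer stretches were left out, among them those of chr17.tRNA23-ArgCCG, chr6.tRNA131-GlnCTG and chr6.tRNA83-LeuTAA. Clusters listed on the 5' side of the midpoint held 63.1%, 88.8% and 91.0% of conversions in replicates 1, 2 and 3, or 81.0% ± 15.5 (SD, n = 3). They held 74.5% ± 9.19 of distinct reads and 60.6% ± 7.22 of clusters. All 3 replicates lay above 50%, with p = 0.25 by the exact sign-flip permutation test (adjusted 0.292). Among set-aside tRNAs the share was higher by conversions, at 96.3%, 99.2% and 98.2%. The difference in conversions, the set minus the set-aside tRNAs, was -33.1, -10.4 and -7.20 percentage points (exact permutation p = 0.25, adjusted 0.292). Counted as clusters, the order was not the same in every replicate: 54.2%, 59.3% and 68.4% of clusters lay on the 5' side in the set, against 60.5%, 57.9% and 58.1% in set-aside tRNAs.

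**Figure D3:**
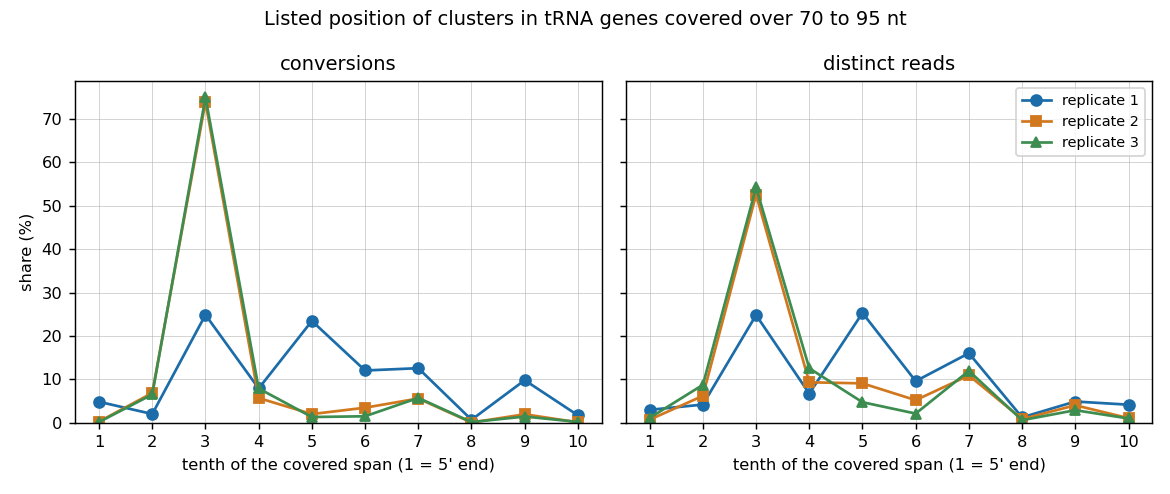
Listed position of clusters along tRNA genes covered over 70 to 95 nt, in 10 bins from the 5' end, as the share of conversions (left) and distinct reads (right), with 1 line per replicate. Bin 3 holds 24.9%, 73.9% and 75.02% of conversions in replicates 1, 2 and 3.

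Cut into 10 equal bins from the 5' end, the covered stretch had its peak in bin 3 in replicates 2 and 3, with 73.9% and 75.02% of conversions. In replicate 1 that bin held 24.9%, and 23.5% lay in bin 5. By clusters the bin held 27.8%, 33.6% and 43.2% in replicates 1, 2 and 3. In set-aside tRNAs it held 88.3%, 94.7% and 91.6% of conversions. Among the 12 leading genes, 7 had the same listed position in all 3 replicates. These include chr6.tRNA131-GlnCTG, 27 nt from the 5' end of its cluster, chr14.tRNA3-ProTGG, 26 nt, and chr19.tRNA8-SeCTCA, 22 nt. Farther along were chr12.tRNA2-SerCGA, 50 nt, and chr6.tRNA83-LeuTAA, 58 nt. The serine and leucine genes were the leading genes with the most conversions in replicate 1 relative to the other replicates. For chr2.tRNA13-AlaCGC the position was 157257296 in replicates 2 and 3 and 157257317 in replicate 1. Over all 161 genes in 3 replicates, 60 (37.3%) had 1 identical position, and 74 had positions within 3 nt. Of the set-aside genes 21 of 47 (44.7%) had an identical position.

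Some genes had separate clusters on both sides. Genes with 2 or more clusters numbered 70, 59 and 24 in replicates 1, 2 and 3, or 28.7%, 25.1% and 13.7% of genes. Among set-aside tRNA genes this share was higher in each replicate, at 36%, 28.2% and 26.5%. In the series-wide list it was lower among set-aside genes, at 17.8% against 22.4% in the set. A difference in this share was not tested. Where a gene of the set had exactly 2, the 5' cluster had more conversions in 36 of 69, 36 of 59 and 18 of 23 genes. By distinct reads the 5' cluster had more in 32, 30 and 18 of these genes, so replicates 1 and 2 showed little preference. Summed over these genes, the 5' clusters held 53.1%, 78.9% and 85.6% of conversions. The median gap between the clusters was 22, 11 and 10 nt. Replicate 1 was again the one with the most even division.

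Clusters of the set had a median length of 37, 39 and 35 nt in replicates 1, 2 and 3, shorter than a whole tRNA, whose RefSeq genes in this set run from 70 to 93 nt with a median of 73. The medians of set-aside tRNAs were 40, 41 and 36 nt, and the difference, the set minus these, was -3, -2 and -1 nt (-2 ± 1, SD, n = 3). It was in the same direction in 3 of 3 replicates, with an exact permutation p = 0.25 (adjusted 0.292). Glycine and glutamate tRNAs, at 36, 39 and 37 nt, were not longer than the set in replicates 1 and 2, and the isotypes with intron-containing genes stood at 59, 57 and 36 nt. Clusters of 31 to 40 nt made up 42.9% ± 3.15 of clusters and held 26.8% ± 15.0 of conversions. Clusters over 60 nt were 15.9% ± 5.15 of clusters but held 55.4% ± 12.5 of conversions and 48.0% ± 11.2 of distinct reads.

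**Figure D4:**
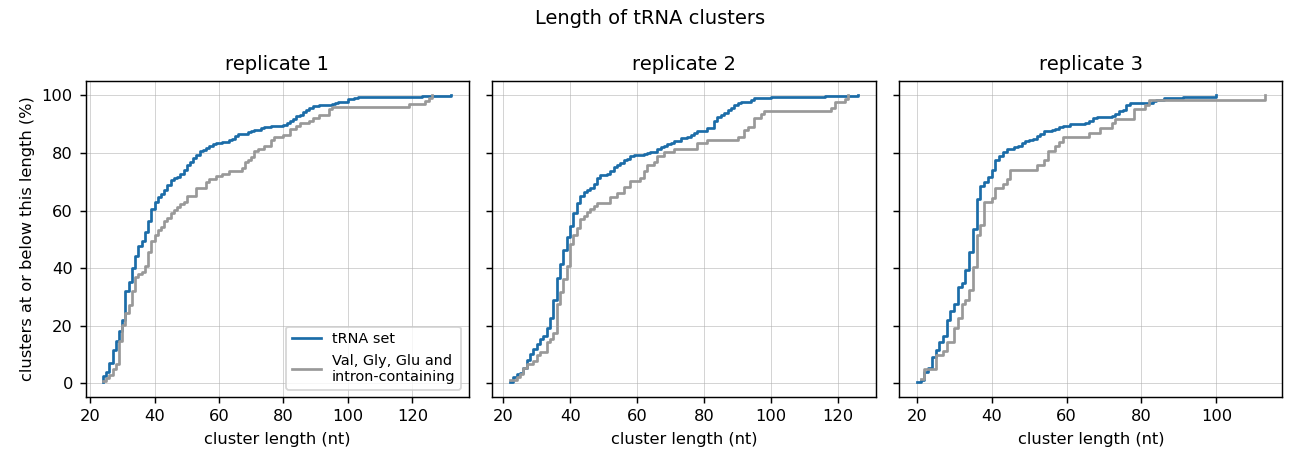
Cumulative distribution of cluster length in nt for the tRNA set and for set-aside nuclear tRNAs, 1 panel per replicate. The curves of the set rise earlier, with medians of 37, 39 and 35 nt in replicates 1, 2 and 3.

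A cluster can also run past the mature tRNA. Of clusters whose anticodon RefSeq lists, 33 of 288, 40 of 270 and 13 of 187 were longer than the longest RefSeq gene of that anticodon. They held 50.01%, 61.5% and 30.4% of the conversions in these clusters. In the series-wide list, chr17.tRNA23-ArgCCG covered 100 nt, against a longest ArgCCG gene of 73 nt, and chr6.tRNA131-GlnCTG covered 102 nt, against 72 nt. A cluster joins overlapping reads, so its length does not show that any single read ran past the tRNA.

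T-to-C conversions were a smaller part of all deposited edits in the set than in set-aside tRNAs. Edits are a further count per cluster in the files, never below the conversions and never above the reads. The sources used here do not give the base changes behind them. Conversions made up 55.2%, 39.5% and 44.1% of edits in the set in replicates 1, 2 and 3. Valine tRNAs had 61.6%, 78.2% and 89.2%, glycine and glutamate tRNAs 73.9%, 58.9% and 83.8%, and the isotypes with intron-containing genes 84.7%, 73.4% and 83.4%. All set-aside tRNAs together had 71.7%, 74.4% and 87.5%. The set minus these was -16.6, -34.9 and -43.4 percentage points, or -31.6 ± 13.7 (SD, n = 3; exact permutation p = 0.25, adjusted 0.292). As a median over clusters the difference was only -3.20 points, so clusters with many reads carried most of it.

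Of the 34 anticodons, 20 had T-to-C conversions above 50% of edits in every replicate and 6 below 50% in every replicate. The 6 were LeuTAA, TrpCCA, ArgTCG, AlaAGC, IleAAT and SerTGA. SeCTCA was high throughout, at 95.4%, 97.0% and 98.2%, as was SerAGA at 94.0%, 95.4% and 95.9%. LeuTAA was steady at 36.1%, 37.0% and 36.8%. Others were far lower in replicates 2 and 3 than in replicate 1: AlaAGC had 37.5%, 4.02% and 5.45%, IleAAT 29.996%, 2.72% and 4.06%, and LeuTAG 72.0%, 7.87% and 10.8%. In many tRNAs whose anticodon begins with A, that base is deaminated to inosine. Of the 7 such anticodons in the set, AlaAGC and IleAAT were low, while SerAGA, LeuAAG, ArgACG, ThrAGT and ProAGG were above 50% in every replicate. A part of inosine in the edits was not tested.

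**Figure D5:**
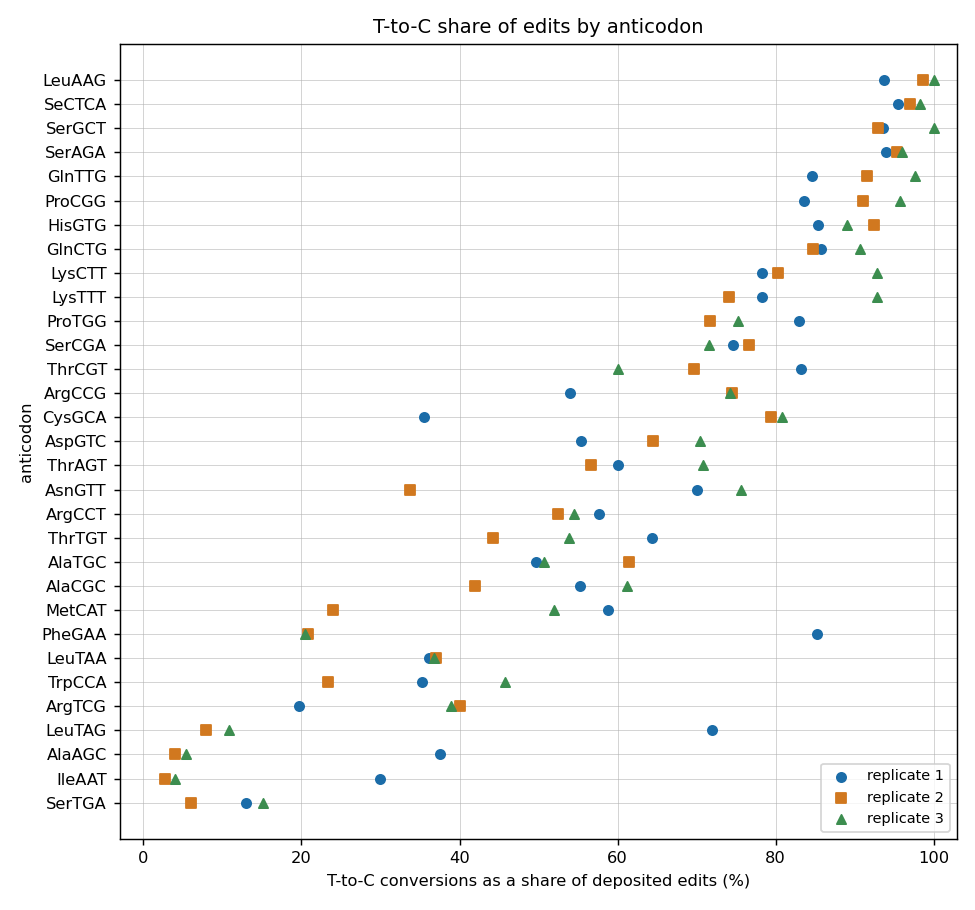
T-to-C conversions as a percentage of deposited edits for the 31 anticodons of the set with at least 1000 reads in the series-wide list, with 1 point per replicate. AlaAGC and IleAAT lie near 0 in replicates 2 and 3, and LeuTAG lies at 7.87% and 10.8%. SeCTCA and SerAGA lie above 90 in all 3 replicates.

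Single genes with many reads carried much of this. Gene chr6.tRNA166-AlaAGC had 7122, 63779 and 38071 reads in replicates 1, 2 and 3, with 4790, 62239 and 37439 edits but 1744, 2501 and 2054 conversions. The predicted pseudogene chr6.tRNA88-PseudoGAA (chromosome 6, 79668048 to 79668082, minus strand, within PHIP) had 11857, 57999 and 39983 reads, 10867, 56122 and 38475 edits, and 49, 300 and 226 conversions. AlaAGC, IleAAT, LeuTAG and PseudoGAA, chosen after their values were seen, held 19.8%, 65.0% and 73.5% of the set's excess of edits over conversions. LeuTAA alone held 22.8%, 5.74% and 4.17% of this excess, more in replicate 1 than the 4 together. Without the 4, conversions made up 59.1%, 64.2% and 74.1% of the set's edits.

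Conversions were 41.6%, 31.1% and 35.3% of reads in the set, against 49.0%, 51.4% and 65.1% in set-aside tRNAs. The difference was -19.2 ± 11.2 percentage points (SD, n = 3), lower in 3 of 3 replicates (exact permutation p = 0.25, adjusted 0.292). In replicate 1 valine tRNAs, at 39.4%, lay below the set. Reads per distinct read were 17.0, 35.2 and 62.2 in the set, against 25.2, 20.2 and 30.6 in set-aside tRNAs. They differed without a shared direction, by -8.17, 14.9 and 31.5 (exact permutation p = 0.5, adjusted 0.5).

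By place in the genome, chromosome 6, which holds the largest human tRNA gene cluster, carried 30.5%, 28.2% and 29.5% of the set's clusters and 36.8%, 40.1% and 37.1% of its conversions in replicates 1, 2 and 3. RefSeq places 39.1% of the set's genes (125 of 320) there. Clusters within another gene on the same strand numbered 61, 52 and 38, with 12.6%, 10.6% and 14.2% of conversions.

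Clusters on mRNAs of tRNA metabolism were counted as well. Over all genes with an exonic sense cluster in any replicate, 17.0% had one in all 3 (1405 of 8268). Of 23 genes for cytosolic aminoacyl-tRNA synthetases, which attach amino acids to tRNAs, and their scaffolds, 1 had a cluster in all 3 replicates, 7 in 2, 7 in 1 and 8 in none. The 1 was EPRS, the glutamate and proline synthetase, with 10, 5 and 8 conversions. Of 42 genes for tRNA transcription, end processing, modification and export, 2 had a cluster in all 3 replicates, 3 in 2, 14 in 1 and 23 in none. GTF3C4, a subunit of the polymerase III factor TFIIIC, had 58, 45 and 55 conversions, and POLR3D, a polymerase III subunit, 5, 2 and 4. These counts are small, at 6.67% of the 15 synthetase genes and 10.5% of the 19 further genes with any cluster. A difference from the 17.0% over all genes was not tested.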

How the data were processed

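FLAG-DICER PAR-CLIP was measured in 3 replicates. Coordinates are of the hg19 build, and Bowtie2 2.1.0 was among the tools, per the submitters' processing notes. The authors deposited 1 cluster list per replicate, covering 2 sequencing runs each, and 1 series-wide list. Per the file attributes, clusters carry an estimated false discovery rate of 5%. The deposited value is a count of T-to-C conversions per cluster, not normalised. The entropy score that the authors deposited for each cluster was read and not used. Reads, distinct reads, edits, length and annotation came from the deposited attributes. The lists held 1306125, 1060791 and 595487 conversions, which are totals of listed clusters and not sequencing depth, so shares of each list were compared. Their precision is given by the spread over 3 replicates.

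Clusters were grouped by the tRNA gene they name, then by anticodon and amino acid, with Python 3.11.15, numpy 2.4.6, pandas 2.3.3, scipy 1.17.1 and matplotlib 3.10.9. Differences between tRNA groups were tested per replicate by exact two-sided sign-flip permutation with Benjamini-Hochberg adjustment over 7 tests. Overlap required 1 nt on the same strand. The calculations were tested on simulated data. The genes named were the leading gene of each amino acid, the 12 with the most conversions, the 5 most uneven between replicates and the pathway mRNAs found in all 3; any gene beyond these was named after its values were seen. The members and lists were chosen with earlier results of these data known, and the position and edit measures after seeing the files. Alternatives covered the weight, filters on low values, the list used, clusters with other annotation, predicted pseudogenes and each replicate left out. No tRNA sequence was read, since no genome was used here.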

Additional observations from a re-analysis of the deposited data

How the results depend on the processing

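None of the differences recomputed changed sign: the log2 difference per cluster, the length difference and the T-to-C difference. The 5' side share stayed above 50%. The set's shares and the gene count cannot be negative, and their changes are given below. Conversions as a percentage of reads and reads per distinct read were not recomputed. The 5' side difference against set-aside tRNAs, recounted by clusters, lost its shared direction, and the order of amino acids and of anticodons turned by distinct reads. The set's share of all conversions, 15.3%, was 25.7% by reads. Its share of clusters, 2.76%, was 8.92% with at least 3 distinct reads and 4.30% with at least 10 conversions. The other alternatives moved these values, the set's share of tRNA conversions and the sign-flip results by less than the spread or kept their direction and side of the threshold, although p could not pass 0.05 in any of them. Leaving out each replicate in turn gave 13.1% to 18.9% of all conversions, 2.17% to 3.32% of clusters and 51.9% to 61.6% of tRNA conversions. It gave -0.56 to -0.50 for the log2 difference per cluster, -2.5 to -1.5 nt for length, 76.0% to 89.9% for the 5' side, and -39.1 to -25.7 points for the T-to-C share. The 161 genes in all replicates became 163 to 214 genes in both remaining replicates when 1 was left out, 133 with at least 3 distinct reads and 120 with at least 10 conversions. By distinct reads, 13 of 19 amino acid classes and 40 of 52 anticodon classes moved by more than 1 SD, and by reads 9 and 19; pseudogenes and the suppressor count as classes here. The causes were not tested. The T-to-C difference was -26.6 points without predicted pseudogenes. Without clusters naming a gene or repeat of another kind, 129 genes were in all replicates. Leaving out clusters that name several tRNA genes had been planned, but there were 0. The samples form 1 group, so no comparison between sample groups was possible. The sign-flip tests between tRNA groups take differences within each replicate and are thus paired by replicate. Depth limits the low anticodons and genes, and intervals for counting error would not cover repeated reads.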
